A study of Macaca mulatta with 30 samples.

Results

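LOC114670789 is a rhesus macaque (Macaca mulatta) gene known in the deposited table only by its identifier, and it was the most abundant transcript in most parotid and submandibular gland libraries. It is described here with PRR4, a gene of the proline-rich protein group. LOC114670789 was chosen by its measured level in those glands, so its levels there are given as a description, without a test. PRR4 was chosen by its symbol, and the same rule asked for genes named PRB or PRH followed by a digit. The table held 2 such genes among 21292, since it had 0 rows with a PRB or PRH symbol.

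RNA was sequenced from 5 tissues of 6 macaques, namely 3 salivary glands (parotid, submandibular, sublingual), pancreas and liver. The animals' ages are not given in the sources used here. Animals 1 to 4 were female and animals 5 and 6 male, with no treatment named, and each gave 1 flash-frozen piece per tissue, so that every tissue had 6 libraries paired by animal. The parotid piece came from the left gland in every animal but animal 3, where it came from the right. Values are in TPM, a measure of transcript abundance scaled to transcript length and to the same total in every library, so values can be compared between genes but carry no sequencing depth.

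Salivary proline-rich proteins are made in the acinar cells of the major salivary glands and secreted into saliva, where they bind dietary tannins, calcium and tooth mineral. In humans the PRB and PRH genes lie in a cluster together with PRR4, among genes for bitter taste receptors of the TAS2R family. PRR4 is best known as a secreted protein of lacrimal and salivary glands. The files give no product name for LOC114670789, so its protein family is not stated here.

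Some libraries stood apart from the others of their tissue in marker genes. In the submandibular library of animal 4 the serous acinar markers, PRR4 among them, summed to 784 TPM, against 128317 to 185000 TPM in the other 5. Its adipose markers (6 of 6 in the table) summed to 7840 TPM, against 8.19 to 128 TPM, and its blood markers to 6183 TPM, against 53.6 to 156 TPM. In the pancreas library of animal 4 the acinar markers summed to 4540 TPM, against 204647 to 413260 TPM in the others, and the adipose markers to 18013 TPM. The blood markers of that pancreas library summed to 6142 TPM, against 57.7 to 242 TPM, and the myoepithelial markers to 914 TPM, against 11.9 to 56.7 TPM. In the parotid library of animal 6 the skeletal muscle markers (8 of 9 in the table) summed to 91381 TPM, against 58.5 to 6654 TPM in the other 5. The serous acinar markers of the sublingual library of animal 4 summed to 1340 TPM, while the remaining 5 sublingual libraries ranged from 12778 to 116000 TPM. Its mucous acinar markers were not low, with a sum of 275 TPM. That sum lay above animals 1, 3 and 6 (75.1, 208 and 59.3 TPM) and below animals 2 and 5 (388 and 2570 TPM). The low serous sum thus did not extend to the mucous markers. The blood markers in that library of animal 4 summed to 9913 TPM, against 56.5 to 5506 TPM in the other 5, with animal 1 at 5506 TPM. ZG16B, a secreted saliva protein, was at 2016 TPM in animal 4, against 31360 to 332616 TPM. The most abundant gene of that library was SPRR3, at 38847 TPM. Elsewhere in sublingual gland the muscle markers reached 26710 TPM in animal 5 and 9631 TPM in animal 1. Below, "without the 3 libraries" means without the submandibular and pancreas libraries of animal 4 and the parotid library of animal 6. What part this tissue content had in the levels below was not tested, and in bulk tissue fewer cells of a type and less RNA per cell cannot be told apart.

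LOC114670789 took more than 10% of all TPM in 5 of 6 parotid and 5 of 6 submandibular libraries. In parotid its level was 279863 TPM in animal 1, 147689 in animal 2, 119064 in animal 3, 229524 in animal 4, 256678 in animal 5 and 87639.5 in animal 6, a mean of 186743 ± 79145 TPM (SD, n = 6). Animals 1 and 5 were highest, and animal 6, whose library carried the muscle markers, was lowest. Without that library the mean was 206564 ± 69882 TPM (SD, n = 5). As a share of the library the gene took 18.7% ± 7.91 (SD, n = 6), from 8.76% in animal 6 to 28.0% in animal 1.

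In submandibular gland the level was 265700 TPM in animal 1, 179540 in animal 2, 124029 in animal 3, 2719.83 in animal 4, 166790 in animal 5 and 153676 in animal 6. The mean was 148742 ± 85920 TPM (SD, n = 6), and 177947 ± 53207 TPM (SD, n = 5) without animal 4. The submandibular libraries of the other 5 animals overlapped the parotid range, while that of animal 4 lay below every parotid library. Its share of the library was 14.9% ± 8.59 (SD, n = 6), or 17.8% ± 5.32 (SD, n = 5) without animal 4. Within an animal, parotid was 1.05 times submandibular gland in animal 1, 0.823 times in animal 2, 0.960 times in animal 3, 1.54 times in animal 5 and 0.570 times in animal 6. In animal 4, whose submandibular library carried the adipose and blood markers, the ratio was 84.4.

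**Figure D1:**
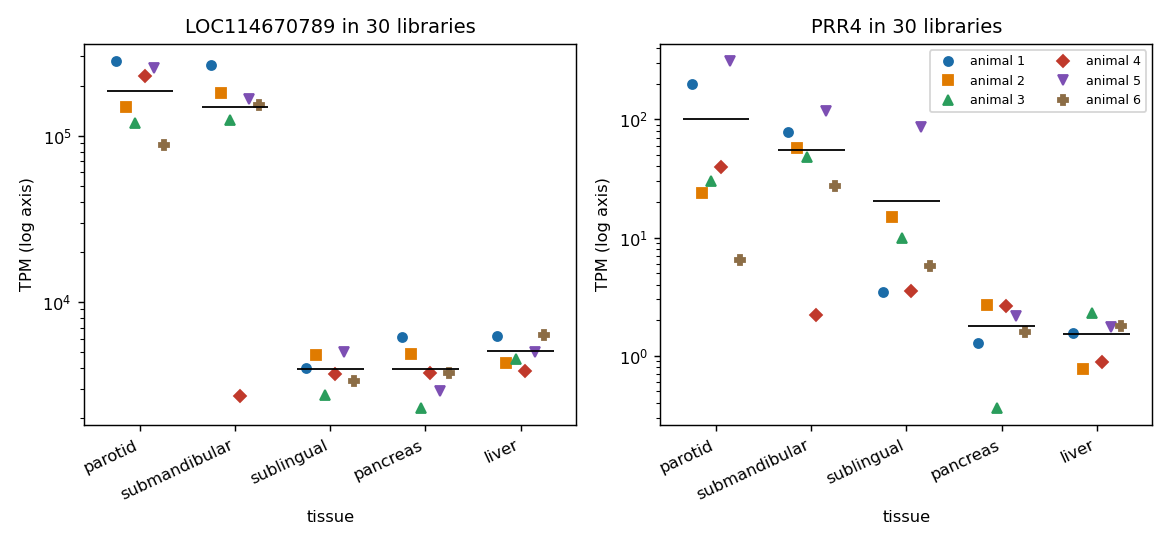
Level of LOC114670789 and of PRR4 in TPM (log axis) in the 6 libraries of each tissue, 1 symbol per animal, with a line at each tissue mean. LOC114670789 is high in parotid and submandibular gland and low in the other 3 tissues, and the submandibular library of animal 4, at 2719.83 TPM, is as low as pancreas.

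In the other 3 tissues LOC114670789 was listed at 2312 to 6359 TPM in every library. In sublingual gland it stood at 4001, 4786, 2749, 3689, 4976 and 3329 TPM in animals 1 to 6, a mean of 3922 ± 854 TPM (SD, n = 6). In pancreas it stood at 6159, 4861, 2312, 3712, 2910 and 3730 TPM, a mean of 3947 ± 1384 TPM (SD, n = 6), or 3994 ± 1542 TPM (SD, n = 5) without animal 4. In liver it stood at 6214, 4260, 4562, 3854, 5015 and 6359 TPM, a mean of 5044 ± 1036 TPM (SD, n = 6). No library of these tissues reached the lowest parotid value. The order of the tissue means was parotid, submandibular gland, liver, pancreas and sublingual gland, and the ranges overlapped between parotid and submandibular gland and among the other 3 tissues.

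Per animal, parotid exceeded pancreas 45.4-fold in animal 1, 30.4-fold in animal 2, 51.5-fold in animal 3, 61.8-fold in animal 4, 88.2-fold in animal 5 and 23.5-fold in animal 6, with a median of 48.5. Submandibular gland exceeded pancreas by 36.9-fold to 57.3-fold in the 5 animals other than animal 4, where it was 0.733 times pancreas. Parotid exceeded liver by 13.8-fold to 59.6-fold, with a median of 39.9. The gland sides of these folds are the values that chose the gene.

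The 3 tissues that were not used to choose the gene were tested against each other. The limma fit held all 30 libraries, so its SE drew also on the parotid and submandibular values that chose the gene. Among those was the submandibular library of animal 4, at 2719.83 TPM. The limma p-values below therefore do not measure the spread of these 3 tissues alone. In limma on log2(TPM + 1), with animal as a block and adjustment over 13550 genes, sublingual gland and pancreas differed by 0.03 on the log2 scale (SE 0.61, adjusted p = 0.983), with sublingual gland higher in 2 of 6 animals. Sublingual gland was lower than liver by a log2 difference of -0.37 (limma, SE 0.61, adjusted p = 0.703), and higher in 1 of 6 animals. Pancreas against liver gave -0.40 (limma, SE 0.61, adjusted p = 0.661), with pancreas higher in 1 of 6. The exact two-sided sign-flip permutation test of the 6 within-animal differences gave p = 0.875, 0.156 and 0.156 for these 3 pairs, or 0.875, 0.234 and 0.234 after adjustment over them. The sign-flip test used only the libraries of each pair. None of the differences passed a threshold of 0.05 in either test. With the trimmed-mean scaling the signs of the first and the third turned, to -0.25 and 0.045. Without the sublingual library of animal 4, sublingual gland against pancreas gave -0.20 (limma, adjusted p = 0.869) and against liver -0.60 (0.544).

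Within a library, LOC114670789 ranked first in 4 of 6 parotid and 4 of 6 submandibular libraries. It was first in the parotid of animals 1, 4, 5 and 6 and in the submandibular gland of animals 1, 2, 5 and 6. Its margin over the next gene was narrowest in the submandibular gland of animal 6, at 1.09 times SMR3B, and widest in the parotid of animal 4, at 1.72 times. Just outside, it stood second in the submandibular gland of animal 3, at 0.814 times SMR3B, and second in the parotid of animal 2, at 0.773 times SMR3B. In the parotid of animal 3 it ranked 4, at 0.605 times SMR3B. SMR3B encodes a small proline-rich peptide of saliva, and it led all 3 of these libraries, at 152354, 191028 and 196684 TPM. In the submandibular library of animal 4 the gene ranked 45, and the mitochondrial gene COX2 led. Its rank was 20 to 43 in sublingual gland, 27 to 58 in pancreas and, in the liver, 24 to 38.

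PRR4 was far scarcer and more variable between animals. In parotid it stood at 197 TPM in animal 1, 23.9 in animal 2, 29.9 in animal 3, 39.4 in animal 4, 310 in animal 5 and 6.46 in animal 6, a mean of 101 ± 124 TPM (SD, n = 6), or 120 ± 128 TPM (SD, n = 5) without animal 6. In submandibular gland it stood at 78.6, 57.7, 47.6, 2.23, 117 and 27.5 TPM in animals 1 to 6, a mean of 55.1 ± 39.9 TPM (SD, n = 6), or 65.6 ± 34.0 TPM (SD, n = 5) without animal 4. Animals 5 and 1 were highest in both glands. The parotid of animal 6, with the muscle markers, and the submandibular gland of animal 4, with the adipose and blood markers, were lowest in theirs. The values of the 2 males, animals 5 and 6, thus lay at both ends of the parotid range.

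In sublingual gland PRR4 stood at 3.48, 14.9, 9.96, 3.55, 85.5 and 5.76 TPM in animals 1 to 6, a mean of 20.5 ± 32.1 TPM (SD, n = 6) that rested mostly on animal 5. In pancreas it stood at 1.29, 2.69, 0.365, 2.62, 2.17 and 1.58 TPM, a mean of 1.79 ± 0.890 TPM (SD, n = 6), or 1.62 ± 0.885 TPM (SD, n = 5) without animal 4. In liver it stood at 1.57, 0.770, 2.33, 0.888, 1.76 and 1.80 TPM, a mean of 1.52 ± 0.591 TPM (SD, n = 6). The pancreas and liver ranges overlapped, and every sublingual value lay above both. The pancreas and liver means were 4.96% and 4.22% of the mean of PRR4 over all 30 libraries, against 57.0% for sublingual gland. The source of the low pancreas and liver levels was not tested. The log2 differences of PRR4 from these tissues, given below, are thus differences of listed levels. In TPM, LOC114670789 exceeded PRR4 by 829 to 13576 times in parotid (median 4902), by 1221 to 5582 times in submandibular gland and by 58.2 to 1151 times in sublingual gland.

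PRR4 was higher in each of the 3 salivary glands than in pancreas and liver, and higher in parotid than in sublingual gland. Of the 10 tissue pairs, 7 passed an adjusted p of 0.05 in limma and 3 did not. Parotid exceeded pancreas by 4.22 on the log2 scale (limma, SE 0.67, adjusted p = 5.41e-05, higher in 6 of 6 animals), a pair in which 15.8% of all 13550 genes were called in either direction. Parotid exceeded liver by 4.32 (limma, adjusted p = 6.50e-06, 6 of 6), where 58% of genes were called. Submandibular gland exceeded pancreas by 3.80 (limma, adjusted p = 0.000248, 5 of 6), where 9.71% were called. It exceeded liver by 3.90 (limma, adjusted p = 3.10e-05, 6 of 6), where 50.7% were called. Without the 3 libraries these 4 log2 differences were 4.96, 4.81, 4.59 and 4.44, and each passed in limma.

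The sublingual differences were smaller. Sublingual gland exceeded pancreas by 2.09 (limma, adjusted p = 0.0342, higher in 6 of 6 animals), where 13.9% of all genes were called, and exceeded liver by 2.20 (limma, adjusted p = 0.0118, 6 of 6), where 31.5% were called. Parotid exceeded sublingual gland by 2.12 (limma, adjusted p = 0.0144, 6 of 6), against 41.5% of all genes called. The call against pancreas was lost without the animal block (adjusted p = 0.0798 in limma), with trimmed-mean scaling (0.117), with quantile normalisation (0.131), with no filter (0.0506) and without animal 2, 3 or 5 (0.109, 0.127 and 0.186). That against liver was lost without animal 2 or 5 (0.0608 and 0.0848), and that of parotid over sublingual gland without animal 1 (0.133). Without the sublingual library of animal 4 alone these 3 differences were 2.17, 2.28 and 2.05 (limma, adjusted p = 0.0383, 0.0167 and 0.0225), and without the 3 libraries they were 2.35, 2.20 and 2.61, each passing in limma.

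Submandibular gland against sublingual gland gave a log2 difference of 1.70 for PRR4 (limma, adjusted p = 0.0567, higher in 5 of 6 animals), which did not pass, where 27.9% of genes were called. Without the 3 libraries it was 2.24 (limma, adjusted p = 0.00109), and without animal 4 in any tissue 2.14 (0.00690). The pair also passed with trimmed-mean scaling (2.60, 0.0297), quantile normalisation (2.70, 0.0327) and a filter of 5 TPM (0.0481). Parotid against submandibular gland gave 0.42 (limma, adjusted p = 1, 3 of 6 animals), where 0.347% of genes were called, and the sign turned to -0.22 without animal 4. Pancreas against liver gave 0.11 (limma, adjusted p = 0.922, 3 of 6), where 30.4% of genes were called. The exact sign-flip permutation test, whose smallest possible value with 6 animals is 0.03125, reached that p for 6 of the 10 pairs. After adjustment over the 10 pairs 0 of them stayed under 0.05, with a lowest adjusted value of 0.0521. With 6 pairs at the smallest possible p, the adjustment could not give a lower value. The count of 0 thus cannot decide whether these pairs differ.

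LOC114670789 lies beside other LOC genes that were also abundant in glands. In RefSeq (assembly T2T-MMU8v2.0) its protein-coding neighbours to one side are, in order, LOC695018, LOC107000768, the taste receptor gene TAS2R42, SMIM10L1 and TAS2R46. On the other side, after LOC144332679, which has no row in the expression table, come ETV6, BCL2L14, LRP6, MANSC1 and BORCS5. On the same chromosome, LOC722360 lies between the taste receptor genes TAS2R14 and TAS2R13, and LOC107000764 lies next to TAS2R13. Their protein products are not named in the files. How reads were divided among similar transcripts is not stated either, so the value of each of these genes alone is uncertain.

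LOC695018, the nearest neighbour, was abundant in parotid and much lower in submandibular gland. It stood at 140446, 91851, 84836, 94151, 149832 and 60074 TPM in the parotid of animals 1 to 6, and at 25478, 24981, 8016, 1385, 13318 and 9588 TPM in the submandibular gland. The 2 glands did not overlap. Parotid exceeded submandibular gland by 3.33 on the log2 scale (limma, SE 0.42, adjusted p = 0.000126, higher in 6 of 6 animals), and by 2.78 without the 3 libraries (1.33e-06).

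LOC107000768, the next neighbour, had the same order. It stood at 61138, 52169, 45113, 39773, 60132 and 32497 TPM in parotid and at 12262, 9756, 1448, 544, 8218 and 683 TPM in submandibular gland. The lowest parotid library was above every submandibular one. Parotid exceeded submandibular gland by 4.05 (limma, SE 0.47, adjusted p = 2.94e-05, 6 of 6 animals), and by 3.48 without the 3 libraries (4.07e-05). Both calls were lost when limma was fitted to the 12 libraries of these glands alone, with adjusted p of 0.219 for LOC695018 and 0.161 for LOC107000768. For LOC114670789 the same difference, given as a description, was 0.99, or 0.20 without the 3 libraries.

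Both neighbours also exceeded pancreas in both glands. In parotid the log2 difference from pancreas was 6.25 for LOC695018 (limma, adjusted p = 3.63e-10, 6 of 6 animals) and 6.43 for LOC107000768 (1.09e-09, 6 of 6). In submandibular gland it was 2.92 (limma, adjusted p = 2.34e-05, 5 of 6) and 2.38 (0.000948, 5 of 6). Of the 10 neighbours with a row, 7 passed the filter on low values, and in parotid against pancreas 2 of these were higher, 2 lower and 3 not past the threshold, against 2.24% higher and 13.6% lower over all genes. In submandibular gland against pancreas 2 were higher and 1 lower, against 2.25% and 7.46% over all genes. In parotid against submandibular gland 2 were higher and 0 lower, against 0.133% and 0.214%. The 2 higher ones were LOC695018 and LOC107000768 in each of these pairs.

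The 2 lower ones in parotid against pancreas were BCL2L14, of the BCL2 family of apoptosis regulators, and BORCS5, a subunit of a complex that positions lysosomes. BCL2L14 had means of 0.290 TPM in parotid and 3.64 TPM in pancreas (log2 difference -1.68, limma, adjusted p = 9.48e-05). BORCS5 had means of 2.43 and 7.19 TPM (-1.15, 0.0180), and its call was lost with the trimmed-mean scaling (-0.55, 0.133). The taste receptor genes TAS2R42 and TAS2R46 were at or below 0.299 TPM in every library. SMIM10L1 had tissue means of 46.7 to 79.7 TPM, and the tissue means of ETV6, BCL2L14, LRP6, MANSC1 and BORCS5 ran from 0.243 to 9.49 TPM.

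**Figure D2:**
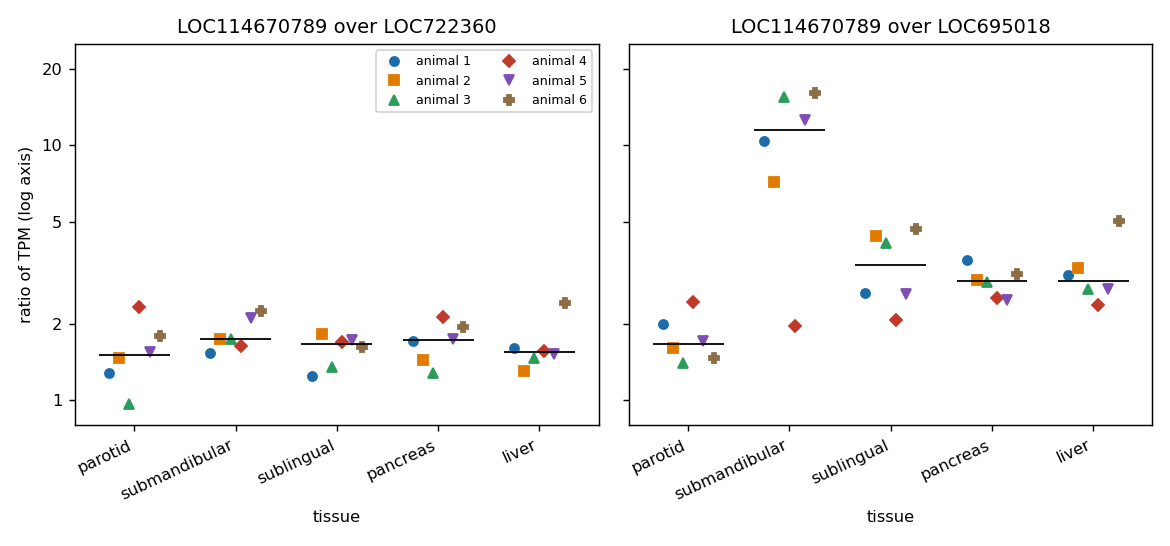
Ratio of the TPM of LOC114670789 to that of LOC722360 (left) and of LOC695018 (right) in each library, on a log axis, with 1 symbol per animal and a line at each tissue median. The ratio to LOC722360 stays between 0.969 and 2.41 in all tissues, whereas the ratio to LOC695018 is 1.40 to 2.44 in parotid and 7.19 to 16.0 in the submandibular libraries other than that of animal 4.

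LOC722360 followed LOC114670789 most closely of all genes compared. It stood at 219049, 100786, 122816, 98743, 166089 and 48970 TPM in the parotid of animals 1 to 6, and at 173096, 103454, 71416, 1665, 79295 and 68425 TPM in the submandibular gland. The library of animal 4 was again the low one in submandibular gland. The median ratio of LOC114670789 to LOC722360 was 1.51 in parotid and 1.74 in submandibular gland. Outside these glands it was 1.66 (sublingual), 1.72 (pancreas) and 1.54 (liver), and both genes were low there.

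The ratio to LOC695018 did not stay level. It was 1.40 to 2.44 in parotid (median 1.66). In submandibular gland it was 10.4 in animal 1, 7.19 in animal 2, 15.5 in animal 3, 1.96 in animal 4, 12.5 in animal 5 and 16.0 in animal 6. Sublingual gland, pancreas and liver lay between the glands, with medians of 3.38, 2.94 and 2.93. For LOC107000768 the median ratio was 7.72 in sublingual gland, 6.83 in pancreas and, in the liver, 7.02, against 3.55 for parotid and 20.98 for submandibular gland. The submandibular ratios spread widely, at 21.7, 18.4, 85.6, 5.00, 20.3 and 225 in animals 1 to 6. In animal 6 the submandibular level of LOC107000768 was only 1.62 times that of pancreas. In sublingual gland, pancreas and liver, LOC114670789, LOC695018 and LOC107000768 stood at 4.92% to 7.24% of their means over all 30 libraries. The source of those low levels was not tested, so the ratios there are given as listed.

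LOC107000764 was singled out after its values had been seen, because it split the animals. In parotid it stood at 3251 TPM in animal 1, 110632 in animal 2, 126135 in animal 3, 133374 in animal 4, 108559 in animal 5 and 1162 in animal 6. In submandibular gland it stood at 2975, 107229, 98392, 1363, 107157 and 2115 TPM. Animals 1 and 6, a female and a male, were low in both glands. Animal 1 had the highest values of LOC114670789 and of LOC722360 in both glands, and animal 6 the lowest of both in parotid. The submandibular library of animal 4 was low in all 3 genes. In animals 1 and 6, LOC722360 exceeded LOC107000764 by 67.4 and 42.2 times in parotid and by 58.2 and 32.3 times in submandibular gland. The ratio was 0.740 to 1.53 in the other 4 parotid libraries and 0.726 to 1.22 in the other 4 submandibular ones.

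**Figure D3:**
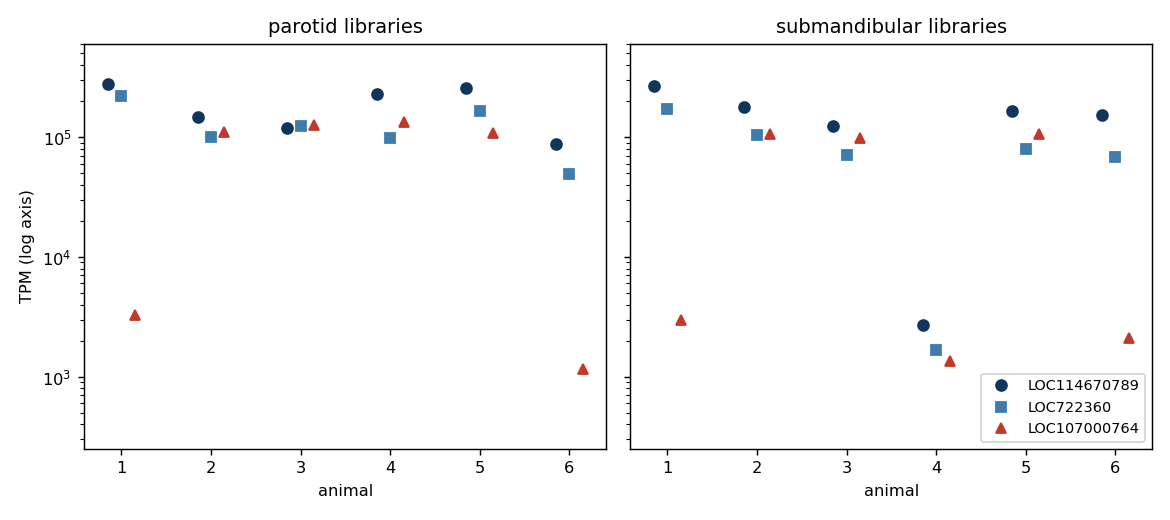
Level of LOC114670789, LOC722360 and LOC107000764 in TPM (log axis) by animal, in parotid (left) and submandibular gland (right), 1 point per library. LOC107000764 is at 1162 to 3251 TPM in both glands of animals 1 and 6, and the submandibular library of animal 4 is low in all 3 genes.

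In sublingual gland LOC107000764 was also lowest in animals 1 and 6, at 665 and 1056 TPM, against 1397 to 3414 TPM in the other 4. The ratio of LOC722360 to it was 4.84 and 1.94 in these animals, against 0.844 to 1.56. LOC107000764 was at 733 to 1866 TPM in pancreas and, in the liver, 670 to 2705 TPM. In the liver of animal 6 it stood at 2455 TPM, above the 1162 TPM of the parotid and the 2115 TPM of the submandibular gland of the same animal. In the liver of animal 1 it stood at 1659 TPM and in the pancreas at 1866 TPM, against 3251 TPM in the parotid. The sublingual levels largely overlapped those of liver and pancreas, and the source of the levels in these 3 tissues was not tested. They are given as listed, not as expression by those tissues.

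The low levels outside the glands were set beside those of other genes whose high levels were confined to part of the tissues. LOC114670789 stood at 5.63% of its mean over all 30 libraries in sublingual gland, 5.66% in pancreas and, in the liver, 7.24%. For 6 genes abundant in the glands (LOC114670789, LOC722360, LOC695018, LOC107000768, SMR3B and BPIFA2) the same share was 4.92% to 8.67% in sublingual gland, 4.64% to 5.66% in pancreas and, in the liver, 6.33% to 8.37%. LOC114670789 is itself among these 6, so its shares lie within these ranges by construction, and in pancreas it is the highest of them. The same was computed for the 12 of 15 markers of pancreas acinar cells, and the 12 of 15 of liver, whose mean in their own tissue reached 1000 TPM. The pancreas markers were at 4.28% to 6.96% in liver and 2.84% to 5.24% in parotid. The liver markers were at 1.98% to 3.24% in parotid and at 3.49% to 51.7% in pancreas, with a median of 4.12% there. The gland genes were high in parotid and submandibular gland, the markers mainly in a single tissue. Their shares of the mean over all 30 libraries are therefore not directly comparable. The source of the low levels was not tested. The level of LOC114670789 in sublingual gland, pancreas or liver is given here as listed, not as expression by those tissues. The same holds for the levels of the other gland genes in pancreas and liver, and for those of the other LOC genes in sublingual gland.

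The LOC genes together made up 23.0% to 74.1% of a parotid library. The 5 genes LOC114670789, LOC722360, LOC695018, LOC107000768 and LOC107000764 took 70.4%, 50.3%, 49.8%, 59.6%, 74.1% and 23.0% of all TPM in the parotid of animals 1 to 6. In submandibular gland they took 48.0%, 42.5%, 30.3%, 0.768%, 37.5% and 23.4%. Parotid was higher in 5 of the 6 animals, and animal 6, with the muscle markers in its parotid library, was the exception. The sum was 0.748% to 1.39% in sublingual gland, 0.703% to 1.42% in pancreas and, in the liver, 1.00% to 1.48%.

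**Figure D4:**
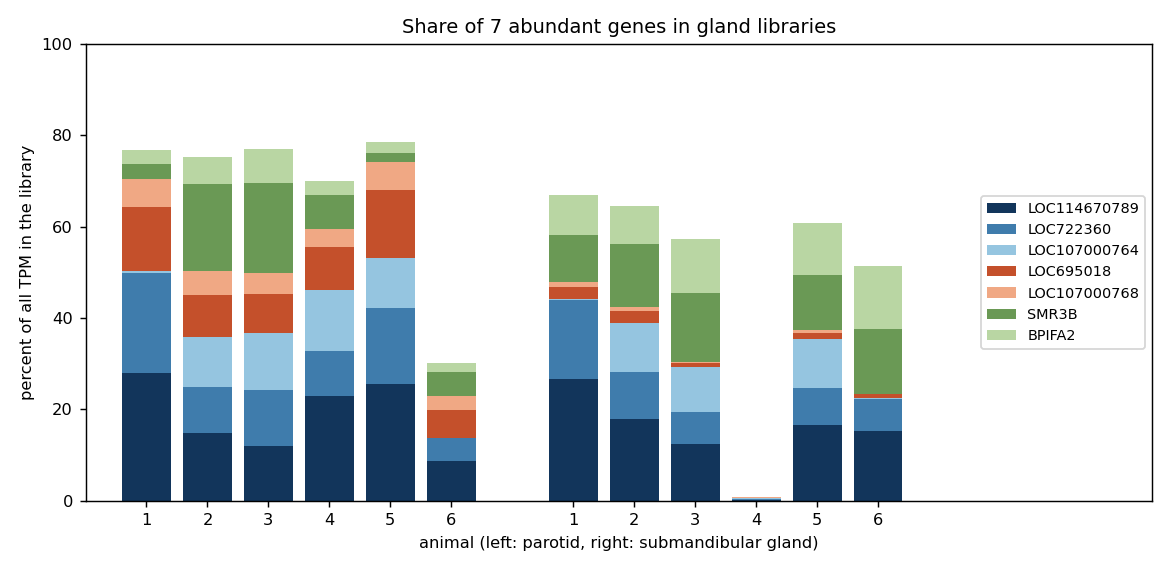
Percent of all TPM taken by 7 abundant genes in each parotid and submandibular library, stacked, with the animals in order from 1 to 6 in each gland. LOC114670789 takes 8.76% to 28.0% in parotid, and the submandibular bar of animal 4 is close to 0.

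The genes most like LOC114670789 in profile were ranked by Pearson's r of log2(TPM + 1) over the 30 libraries, among the 1450 genes whose mean reached 100 TPM in any tissue. These values describe libraries that share a total and a set of tissues, so no p is given. The 10 most alike were LOC722360 (0.994), CST5 (0.968), BPIFA2 (0.945), LOC695018 (0.936), SMR3B (0.931), SLC31A2 (0.887), PRR27 (0.887), LOC107000768 (0.876), LOC713027 (0.857) and TESC (0.834). PRR4 came next at rank 11 (0.824). CST5 encodes cystatin D, an inhibitor of cysteine proteases in saliva, and BPIFA2 a secreted saliva protein. SLC31A2 belongs to a family of copper transporters and TESC encodes a calcium-binding protein. Of the 10 genes, 4 carry LOC identifiers, and 3 of those are on the chromosome of LOC114670789. By Spearman's rho, 9 of the 10 stayed in the list, as did 9 without the 3 libraries.

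These genes were not equally abundant. CST5 had a parotid mean of 4507 ± 1832 TPM and a submandibular mean of 8995 ± 4848 TPM, and means of 146 to 206 TPM in the other 3 tissues (SD, n = 6 each). SLC31A2 had 119 ± 53.1 TPM in parotid and 84.8 ± 30.6 in submandibular gland, against 20.8 to 35.5 TPM in the others. TESC had 294 ± 60.7 and 223 ± 107 TPM, against 13.3 to 73.7 TPM. By mean level the 3 most abundant genes in parotid were LOC114670789, LOC722360 and LOC695018. In submandibular gland they were LOC114670789, SMR3B (109106 TPM) and BPIFA2 (89932 TPM). In sublingual gland they were ZG16B (171551 TPM) and PIP (52102 TPM), which encode secreted saliva proteins, and COX2 (20915 TPM).

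**Figure D5:**
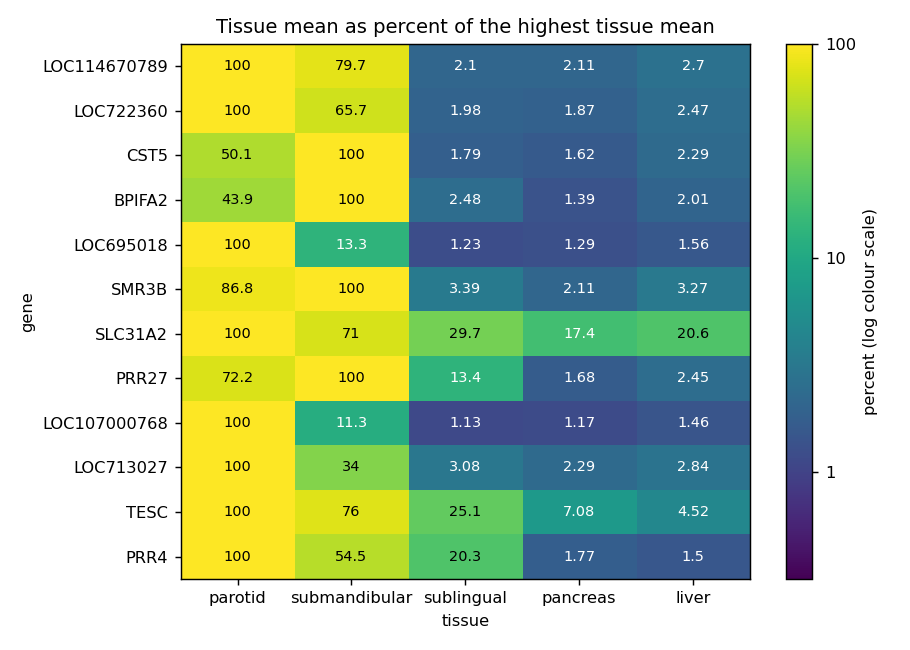
Mean TPM in each tissue as a percent of the highest tissue mean of the same gene, for LOC114670789, the 10 genes most like it and PRR4, with the percent written in each cell and a log colour scale. Submandibular gland is at 79.7% of parotid for LOC114670789 but at 13.3% for LOC695018 and 11.3% for LOC107000768.

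A list of 40 genes for proteins of saliva was used to place these genes among other secreted proteins. It was chosen with earlier results of these data known, so its counts and medians below are a description and not those of an independent list. Of the list, 34 had a row and 31 passed the filter on low values. In parotid against pancreas 11 were higher and 2 lower (limma, adjusted p under 0.05), with a median log2 difference of 0.54, against -0.48 over all genes, of which 303 were higher and 1838 lower. The largest rises were those of SMR3B (4.97, adjusted p = 2.97e-05) and CST5 (4.89, 7.40e-06). AMY2B, an amylase of the digestion of starch, was lower (-3.71, 0.00103), as was TCN1, a cobalamin-binding protein (-3.36, 0.00738).

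In submandibular gland against pancreas 19 of the 31 were higher and 1 lower, with a median of 2.71, against -0.33 over all genes, of which 305 were higher and 1011 lower. CST2, a cystatin of saliva, rose by 5.36 (limma, adjusted p = 0.000715) and BPIFA2 by 5.12 (4.83e-05), and AMY2B was the gene that fell (-4.40, 0.000191). In sublingual gland against pancreas 20 were higher and 1 lower, with a median of 2.54, against 0.23 over all genes, of which 1412 were higher and 475 lower. CRISP3, a cysteine-rich secretory protein, rose by 6.998 (limma, adjusted p = 6.85e-10), BPIFB1 by 6.90 (1.35e-07), and AMY2B fell (-4.69, 5.59e-05).

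The median of all genes depended on the scaling. Rescaled without LOC114670789, the median of all genes in parotid against pancreas was -0.29 in place of -0.48, and with the trimmed-mean scaling it was 0.04. In pancreas against liver it was -0.36, both as deposited and rescaled, and -0.04 with the trimmed-mean scaling. With that scaling 1208 genes were higher and 1145 lower in parotid, 1118 and 1060 in submandibular gland and 1539 and 1351 in sublingual gland, each against pancreas. Of the saliva list 13 were then higher and 2 lower in parotid, 21 and 1 in submandibular gland and 18 and 1 in sublingual gland. Without the 3 libraries the list counts were 13 and 4, 20 and 2, and 22 and 3, with 3363 of 3815 calls over all genes lower in parotid, and without the sublingual library of animal 4 that gland had 22 and 1.

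Parotid and submandibular gland differed in few genes of the list. Of the 31 genes, 0 were higher in parotid and 4 lower, with a median of -0.27, against -0.13 over all genes, of which 18 were higher and 29 lower. The 4 were CST2 (-6.12, limma, adjusted p = 0.00342), the small salivary mucin gene MUC7 (-4.22, 0.00782), JCHAIN, which joins secreted antibodies (-2.72, 0.0226), and CST3, a cystatin (-2.23, 0.0400). CST2 had a parotid mean of 414 ± 268 TPM and a submandibular mean of 64530 ± 42537 TPM (SD, n = 6 each), and MUC7 had 100.01 ± 31.1 and 2877 ± 2042 TPM. In the limma fit to these 12 libraries alone 0 of the 31 passed, with 12 at an unadjusted p under 0.05, and without animal 1, 2 or 3 also 0, with 8, 9 and 9. Without the 3 libraries 7 were lower, JCHAIN not among them (limma, adjusted p = 0.116).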

How the data were processed

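The authors deposited a table of TPM values with 1 column per library, whose name points to kallisto, also listed in the submitters' processing notes. Its version, the transcriptome and the genome build are not given in the sources used here. Sequencing depth is unknown, so intervals that need it are not given. No column was unused (0 columns).

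Values were analysed as log2(TPM + 1) with limma 3.58.1 in R 4.3.3, on the 13550 genes that reached 1 TPM in 6 or more libraries. The model held tissue and animal for all 30 libraries, with trended variances. Two-sided p-values were adjusted per tissue pair after Benjamini and Hochberg, with a threshold of 0.05. The script was tested on simulated data. Animal entered as a block since the design is within-subject. Deviations from tissue means correlated by 0.161 on average within an animal and by -0.0186 between animals. Trimmed-mean factors dropped 30% of log ratios and 5% of mean levels at each end.

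The genes described and the lists were chosen with earlier results of these data known. The genes named are LOC114670789, PRR4, the 10 most alike, the 3 most abundant per gland, 5 neighbours with a row on each side, and the 2 largest rises and falls of the saliva list per tissue pair. Named in addition, after their values were seen, are LOC107000764, SPRR3, JCHAIN, CST3 and the genes of the closing observations. Names and gene order come from RefSeq, with 90.59% of symbols found there or in a gene name table. PRR4 was in neither. That table has no product names, so a list of genes named proline-rich could not be made. Alternatives were a fit without the block, the 12 libraries of a pair alone, trimmed-mean scaling, quantile normalisation, removal of LOC114670789 from the total, no filter, a filter of 5 TPM, untrended variances, a pseudocount of 0.1, each animal left out, and 3 libraries left out (submandibular and pancreas of animal 4, parotid of animal 6). The level of LOC114670789 relative to the sum of all other genes, and the fit without the sublingual library of animal 4, were chosen after seeing the data.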

Additional observations from a re-analysis of the deposited data

Results flagged for a closer look

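On the log2(TPM + 1) scale, 23 sets of 6 libraries (a gene in a tissue) were examined with Dixon's test for a single distant value, which picked out 1 where chance gives 1.15 at 1 in 20. The parotid and submandibular levels of LOC114670789 were not examined, since they chose the gene. The value picked out was that of LOC722360 in the submandibular library of animal 4, a library that already stood apart in its markers. It was 1665 TPM, with the nearest other at 68425 TPM, a gap of 0.800 of the range on the log2 scale. In TPM, where the highest library was at 173096, the gap was 0.389 of the range and would not have been picked out. In 50 comparisons of the sexes, 0 showed all animals of one sex moving opposite to all of the other. Such a pattern could not occur in pairs where all 6 animals moved the same way. A sex difference in size alone was not examined, so the count does not show that the sexes were alike.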

How the results depend on the processing

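Of 164 refits of PRR4, 145 kept direction and side of the threshold, 10 lost the call, 5 gained it and 4 turned. Of 50 refits of LOC114670789, 45 kept both and 5 turned, none past the threshold. The cause was not tested. Without the replicate block, PRR4 in sublingual gland against pancreas kept its log2 difference of 2.09 but lost the call (limma, adjusted p = 0.0798). Pairing by animal changed no other call of PRR4 or LOC114670789. The same pair lost its call with trimmed-mean scaling (1.77), quantile normalisation (1.80) and no filter (2.09, adjusted p = 0.0506 in limma). Submandibular against sublingual gland passed with trimmed-mean scaling (2.60), quantile normalisation (2.70), the filter of 5 TPM (1.70) and without the submandibular and pancreas libraries of animal 4 and the parotid library of animal 6 (2.24). Pancreas against liver turned to -0.15 without these 3. LOC114670789 turned with trimmed-mean scaling in sublingual gland against pancreas (-0.25) and in pancreas against liver (0.045). Without the sublingual library of animal 4, an alternative chosen after seeing the data, it was -0.20 in sublingual gland against pancreas, and no call of PRR4 changed.

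With each animal left out in turn, PRR4 ranged from -0.22 to 0.89 in parotid against submandibular gland, 1.46 to 2.52 in parotid against sublingual gland, 1.21 to 2.14 in submandibular against sublingual gland, 1.56 to 2.45 in sublingual gland against pancreas, 1.65 to 2.48 in sublingual gland against liver and -0.085 to 0.38 in pancreas against liver. LOC114670789 ranged from -0.11 to 0.17 in sublingual gland against pancreas. Changed genes of the saliva list in parotid against submandibular gland numbered 4, and 0 to 10 with an animal left out, 0 in the 12 libraries alone, 0 with quantile normalisation (8 at an unadjusted p under 0.05 in limma) and 7 without the 3 libraries.

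Over all genes, parotid against submandibular gland gave 47 calls, 5 to 86 with an animal left out, 0 in the 12 libraries alone (632 at an unadjusted p under 0.05 in limma), 97 with trimmed-mean scaling, 111 with quantile normalisation and 29 with the filter of 5 TPM. Parotid against pancreas gave 2141, 947 to 2728 with an animal left out (947 without animal 3) and 3815 without the 3 libraries. Submandibular gland against pancreas gave 1316, 623 to 3946 with an animal left out (3946 without animal 4), 2582 in the 12 libraries alone, 2178 with trimmed-mean scaling, 2514 with quantile normalisation and 4731 without the 3 libraries. Sublingual gland against pancreas gave 1887, 1104 to 4277 with an animal left out (4277 without animal 4), 1049 in the 12 libraries alone, 2890 with trimmed-mean scaling, 3144 with quantile normalisation, 1183 with the filter of 5 TPM and 5116 without the 3 libraries.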

Other observations

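In parotid against sublingual gland 6 of 31 saliva list genes were higher (CST5, SMR3B, BPIFA2, PRR27, DNASE2B and CA6) and 18 lower, with a list median of -2.53 on the log2 scale, against -0.70 over all genes, of which 121 were higher and 5504 lower (40.6%). In submandibular against sublingual gland 7 were higher and 15 lower, with a list median of -1.41, against -0.56 over all genes, of which 102 were higher and 3685 lower (27.2%). With trimmed-mean scaling these medians of all genes were 0.015 and -0.0071. The 7 higher ones were CST2, CST3, CST5, SMR3B, BPIFA2, PRR27 and CA6. Those lower in both glands include CRISP3, BPIFB1, ZG16B, which binds sugars, and LTF, an iron-binding protein. JCHAIN was among them: it had means of 3272 ± 4078 TPM in sublingual gland, 193 ± 146 TPM in submandibular gland and 22.6 ± 8.61 TPM in parotid (SD, n = 6 each). The 4 plasma cell markers, JCHAIN among them, summed to 191 to 9254 TPM in the sublingual libraries and 25.6 to 47.3 TPM in the parotid ones, and their part in the JCHAIN difference was not tested. Scaled to the summed TPM of all other genes in place of the whole library, an alternative chosen after seeing the data, LOC114670789 had a parotid mean of 239388 ± 120576 TPM and a submandibular mean of 184458 ± 116418 TPM (SD, n = 6 each), or 220804 ± 83866 TPM without animal 4 (SD, n = 5).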
